A study of Gallus gallus with 6 samples.

Results

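The untreated retinal cells described here are the Hes5.3-positive cells of chick (Gallus gallus) retinas on embryonic day 5 that were kept in culture with DMSO, the solvent control. They make up 3 of the 6 libraries of the series, the ones labelled as controls and numbered 1, 3 and 4. The 3 libraries treated with retinoic acid (RA) were not used. Retinas were cultured for 8 h in DMEM with 10% fetal bovine serum, penicillin, streptomycin and DMSO, then dissociated with trypsin and sorted by flow cytometry. Each library came from 2 retinas of different embryos, whose opposite retinas received RA. The labels give neither a strain, nor the sex of the embryos, nor the means by which positive cells were marked. Sorting gave 57000 cells for library 1, 192000 for library 3 and 200000 for library 4, with 52.8, 207.9 and 173.8 ng of total RNA. Each library therefore mixes the cells of 2 embryos, and in such bulk RNA fewer cells of a type and less RNA per cell cannot be told apart.

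Early in retinal development, multipotent progenitors divide while a part of them leaves the cell cycle and becomes neurons, with retinal ganglion cells first. Eye-field transcription factors such as PAX6, RAX and SIX3 hold the progenitor state, Notch signalling keeps neighbouring cells from differentiating at once, and proneural factors of the bHLH family start neurogenesis. ATOH7 is the proneural factor required for ganglion cells, and Hes5.3 is a chick gene of the HES5 family that has been linked to ATOH7 in progenitors close to that step. The question put to these libraries is which of these programmes are present in the sorted cells after culture without added RA.

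Of the 6789 genes in the deposited count table, 4726 (69.6%) had a mean of at least 1 CPM (the count scaled to the library total) over the 3 libraries. At least 10 CPM was reached by 4005 genes (59.0%), at least 100 CPM by 2385 (35.1%) and at least 1000 CPM by 142 (2.09%), and counts of list members are to be read against these shares. From 1 to under 10 CPM lay 721 genes (10.6%). Below 1 CPM lay 2063 genes (30.4%), and 828 of these (12.2% of all genes) had no count in any control library. List members in these low classes are to be read against these shares too. The library totals were 23596376, 21771962 and 26560761 counts, so that 3 counts, the number that a count of 0 allows, correspond to between 0.114 and 0.138 CPM in a library. The 142 genes at 1000 CPM or more took 28.5% of all CPM, and the 2385 genes at 100 CPM or more took 91.7%. CPM is not divided by transcript length, and no transcript lengths were used. The classes therefore say how many reads a gene received, and a longer transcript receives more of them at the same number of molecules. A gene without a row in the table was not analysed here. The values are those of 3 libraries of 1 group, so no contrast was tested, and errors are SDs over n = 3 libraries throughout.

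**Figure D1:**
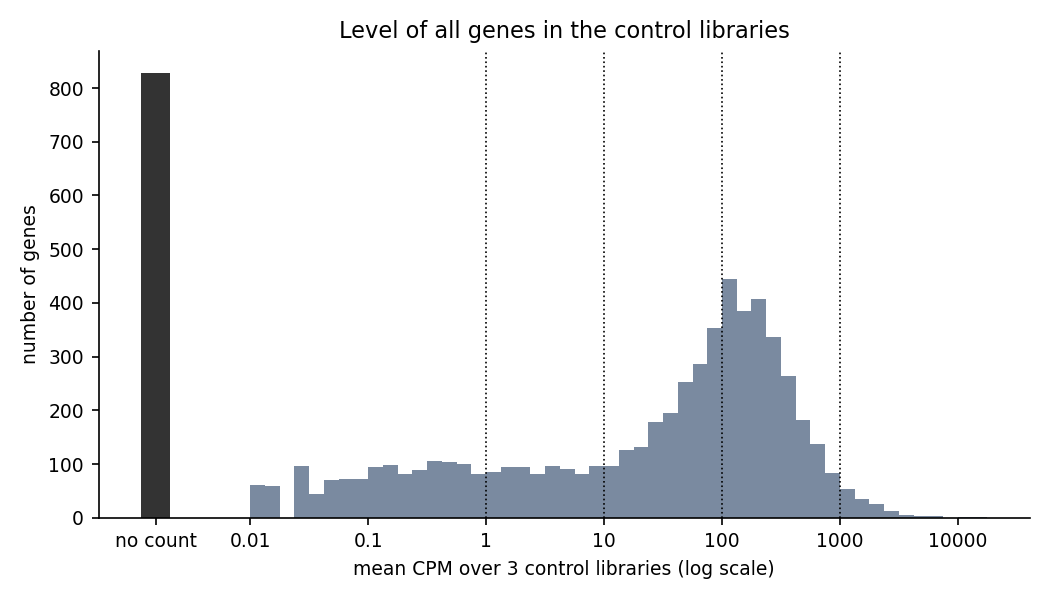
Number of genes by mean CPM over the 3 control libraries, on a log axis, with the 828 genes without a count as a separate bar and dotted lines at 1, 10, 100 and 1000 CPM. Genes form a peak just above 100 CPM, with a long shoulder of low genes below 10 CPM.

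The largest share of counts went to CA2, carbonic anhydrase II, an enzyme that interconverts carbon dioxide and bicarbonate. It was at 15074 CPM in library 1, 12441 in library 3 and 15052 in library 4, or between 1.24% and 1.52% of the counts of a library. The 20 genes with the highest mean CPM took 9.63%, 9.48% and 10.8% of the counts in the 3 libraries. Those 20 were CA2, GAPDH, EIF4G2, SLC2A1, ACTB, H3F3B, CKB, LDHA, YBX1, PKM, NCAM1, EIF1, RPSA, CNBP, ATP5B, EEF1A1, HSPA9, RPL3, STMN1 and CHAC1. They include 3 glycolytic enzymes (GAPDH, LDHA and PKM), the glucose transporter SLC2A1, and the neural proteins NCAM1, a cell adhesion molecule, and STMN1, a regulator of microtubules. H3F3B, a histone H3.3 gene, was at 5422 ± 673 CPM, and reads may be shared with its near-identical relative H3F3C, at 323 CPM. CKB, brain creatine kinase, was at 5169 ± 379 CPM. Of the 142 genes at 1000 CPM or more, 60 belong to at least 1 of the 36 gene lists used here, among them 14 ribosomal protein genes and 6 retinal progenitor genes.

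The gene lists were compared with the whole table by their medians. The median over all 6789 genes was 35.9 CPM. Glycolysis had a median of 969 CPM, cytosolic ribosomal proteins 730 CPM, and the nuclear respiratory chain 322 CPM. The Notch pathway was at 144 CPM, retinal progenitor factors at 75.3 CPM and proneural factors at 52.5 CPM. Genes of ganglion cells and their neurites had a median of 7.87 CPM, Muller glia genes 4.72 CPM, and amacrine, horizontal and bipolar genes 3.28 CPM. Photoreceptor genes were at 0.398 CPM. The lists of tissues next to the retina also had medians under 1 CPM: 0.667 for pigment epithelium, 0.411 for lens and 0.362 for mesenchyme. The median was 0.0196 CPM for blood, 0.0772 CPM for endothelial and 0.838 CPM for immune markers.

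Among the other lists, the median was 158 CPM for S phase, 118 CPM for G2 and M phase and 96.7 CPM for cyclins and kinases. It was 113 CPM for glucose uptake, 224 CPM for the tricarboxylic acid cycle, 244 CPM for mitochondrial biogenesis, 724 CPM for translation and housekeeping and 120 CPM for sterol and fatty acid synthesis. Signalling lists were lower, with 35.2 CPM for retinoic acid, 17.1 for FGF, 12.3 for Wnt, 17.2 for hedgehog, 31.1 for BMP and TGF-beta, 2.46 for growth factors and 21.1 for nuclear receptors, whereas ephrins and Eph receptors had 87.2 CPM. The remaining medians were 345 CPM for stress, 149 for hypoxia, 45.1 for apoptosis and 15.8 for guidance and adhesion genes. Metabolic and cell cycle lists thus lay above the median of all genes, as did the Notch pathway and the ephrins and Eph receptors. The medians of the FGF, Wnt, hedgehog, BMP and TGF-beta, growth factor and nuclear receptor lists lay below it. Yet 15 of 24 FGF genes and 17 of 27 BMP and TGF-beta genes had at least 10 CPM, near the 59.0% of all genes. At least 100 CPM was reached by 5 of these FGF genes and 9 of these BMP and TGF-beta genes, against 35.1% of all genes. The retinoic acid list could not be placed on either side of the 35.9 CPM of all genes. Its median ranged from 31.8 to 38.8 CPM when each library in turn was left out.

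**Figure D2:**
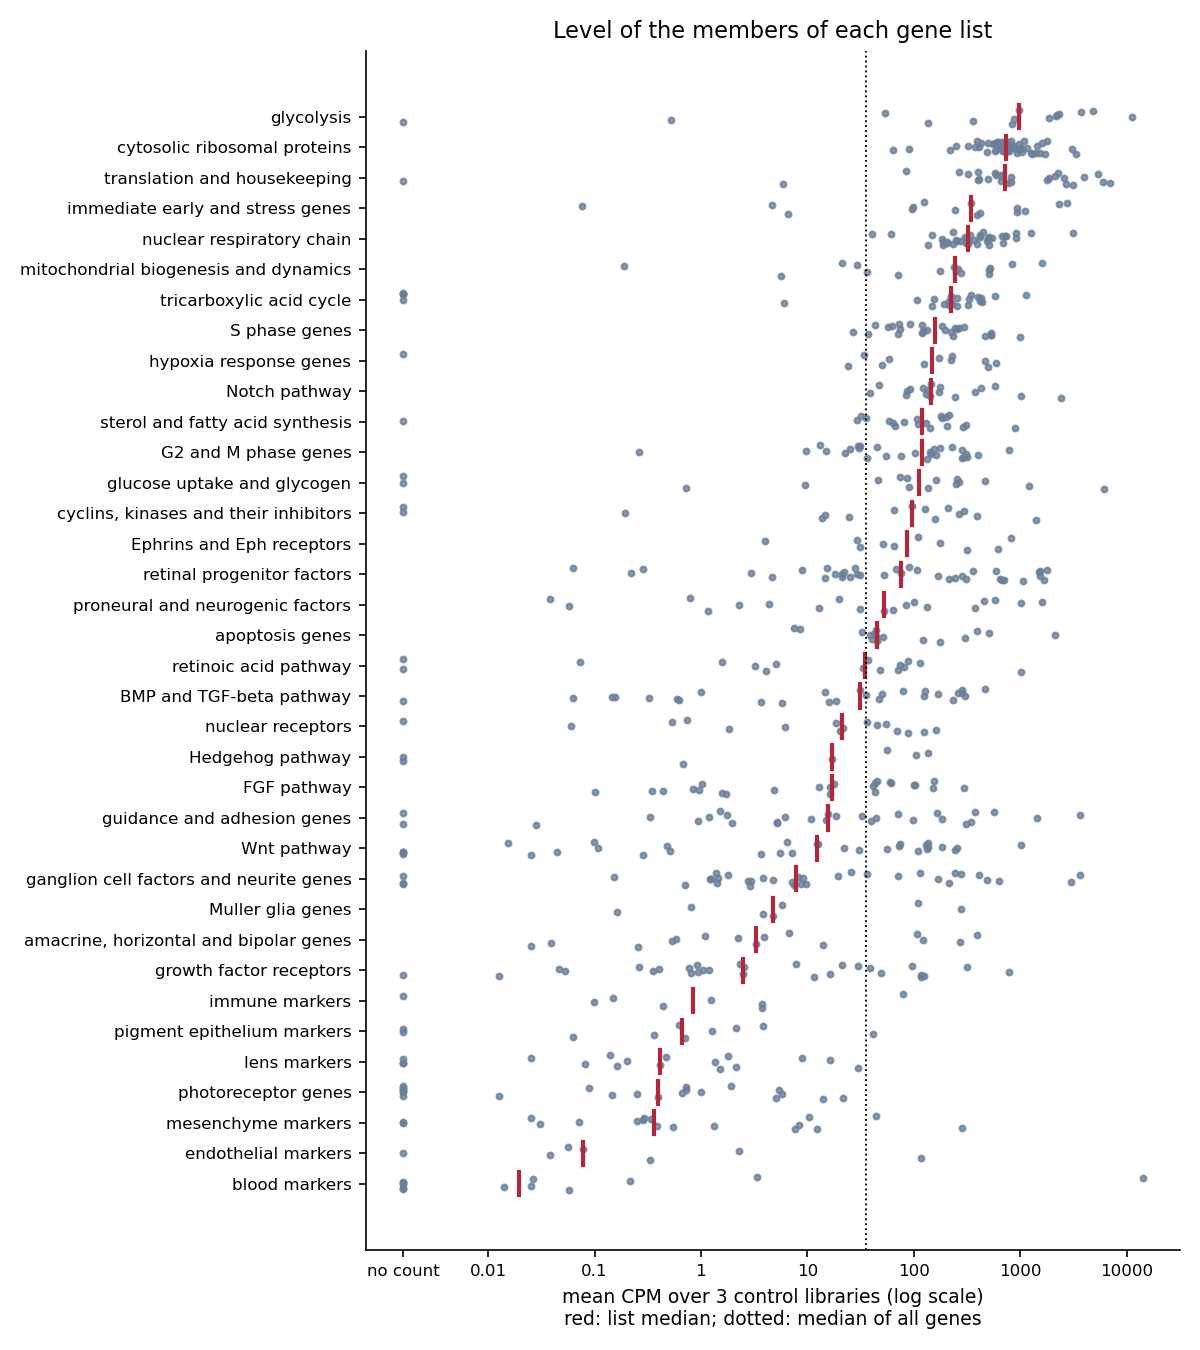
Mean CPM of every member of each gene list (points, log axis) with the list's median (red line) and the median of all genes (dotted line). Metabolic and ribosomal lists lie to the right, at medians of 322 CPM and more for glycolysis, ribosomal proteins and the respiratory chain, while lists of other eye tissues have medians under 1 CPM.

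Progenitor genes were present broadly. Of 37 listed progenitor genes in the table, 31 had at least 10 CPM, 17 at least 100 and 6 at least 1000, while 3 were under 1 CPM. SIX3, an eye-field homeobox repressor, was at 1683, 1517 and 1859 CPM in libraries 1, 3 and 4. NR2E1, the orphan receptor that sustains progenitor division, was at 1667, 1354 and 1539 CPM. PAX6, the paired homeobox factor required for eye formation, was at 1051, 1049 and 1111 CPM. These 3 genes were high in every library, and PAX6 had the smallest spread of them, with a coefficient of variation (CV, the SD as a percent of the mean) of 3.3%.

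SIX6 was at 702 ± 93.4 CPM and RAX at 681 ± 149 CPM. LHX2, a LIM homeobox factor of the optic vesicle, was at 313 ± 14.1 CPM. FZD5, a Wnt receptor of the progenitor zone, was at 1804 ± 294 CPM, and SFRP1, a secreted Wnt antagonist, at 589 ± 56.4 CPM. The radial filament gene VIM was at 1535 ± 39.1 CPM and the fatty acid binding protein gene FABP7, found in neural stem cells, at 1490 ± 181 CPM. The SOX genes fell into different classes. SOX9 was at 244 ± 97.2 CPM, with 353 CPM in library 4 against 210 and 168 CPM in the others. SOX2, a pluripotency and neural progenitor factor, was at 14.5 ± 1.54 CPM, SOX1 at 25.1 ± 5.29 CPM and SOX3 at 4.67 CPM.

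Factors that mark regions of the retina were in the range from 10 to 100 CPM. Ventral VAX1 was at 31.2 ± 0.968 CPM and dorsal TBX5 at 29.6 ± 5.21 CPM. Nasal HMX1 was at 52.7 ± 8.81 CPM, while temporal FOXD1 was at 18.2 ± 3.23 CPM. Genes from opposite poles of both axes were thus detected in each library. Genes tied to late progenitors were low: NFIA was at 2.96 CPM, with 33, 67 and 116 counts, and NFIB had 14, 0 and 2 counts. LIN28A, an early RNA-binding factor, had 15, 1 and 5 counts, whereas its relative LIN28B was at 28.1 ± 2.47 CPM. IKZF1, a factor of early neurogenesis in the mouse, had 0, 0 and 5 counts.

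Neurogenic genes were present at lower CPM than the eye-field factors named above, without correction for length. Of 19 listed genes in the table, 13 had at least 10 CPM and 3 were under 1 CPM. ATOH7 was at 52.5, 54.5 and 50.5 CPM in libraries 1, 3 and 4. Its CV was 3.8%, close to the 2.82% expected from counting error alone, and the 3 libraries lay within a factor of 1.08. NEUROG2, the proneural factor upstream of ATOH7 in chick, was at 66.1, 53.5 and 72.7 CPM. NHLH1, found in newborn neurons, was at 132 ± 10.6 CPM.

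NEUROD1 was at 31.5 ± 3.63 CPM and NEUROD4 at 12.9 ± 2.32 CPM, both bHLH factors of differentiating neurons. BHLHE22, a bHLH repressor of interneurons, was at 84.8 ± 3.09 CPM. NEUROG1 was at 1.17 ± 0.122 CPM and OLIG2, a factor of a subset of progenitors, at 2.28 ± 0.391 CPM. The E proteins TCF12 and TCF3, the general partners of proneural factors, were at 1615 ± 119 and 1017 ± 56 CPM. SOX11 and SOX4, which act in neuronal differentiation, were at 576 ± 74.1 and 461 ± 69.2 CPM, each with its lowest value in library 1.

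Of 38 Notch pathway genes listed, 18 were in the table, all with at least 10 CPM and 13 with at least 100. NOTCH1, the main receptor of retinal progenitors, was at 2292, 2091 and 2914 CPM, and NOTCH2 at 245 ± 8.5 CPM. The ligand gene DLL1, carried by cells that begin to differentiate, was at 134, 146 and 149 CPM. LFNG, a sugar transferase that tunes the receptor's response to ligands, was at 868, 778 and 1414 CPM. Library 4 was highest for NOTCH1 and for LFNG, and the highest LFNG value was 1.82 times the lowest. RFNG, a related transferase, was at 84.4, 84.4 and 83.7 CPM.

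Targets of the pathway were in the table as HES4 and HES5, and the ID genes are given beside them without being read as its output. HES4 was at 132 ± 11.8 CPM. HES5 was at 21, 52 and 43.9 CPM, with library 1 lowest and a CV of 41.3%. The chick genome holds several HES5 copies, and which copy the symbol HES5 stands for, and whether reads are shared between copies, was not established, so it is not read as the sorting marker. ID2, a dominant-negative bHLH partner, was at 585 ± 11 CPM, ID1 at 175 ± 51.4 CPM, ID4 at 145 ± 28.1 CPM and ID3 at 47.1 ± 10.4 CPM. Each of ID1, ID3 and ID4 was highest in library 4. The processing enzymes of the receptor were also detected, with ADAM10 at 379 CPM and NCSTN at 123 CPM.

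**Figure D3:**
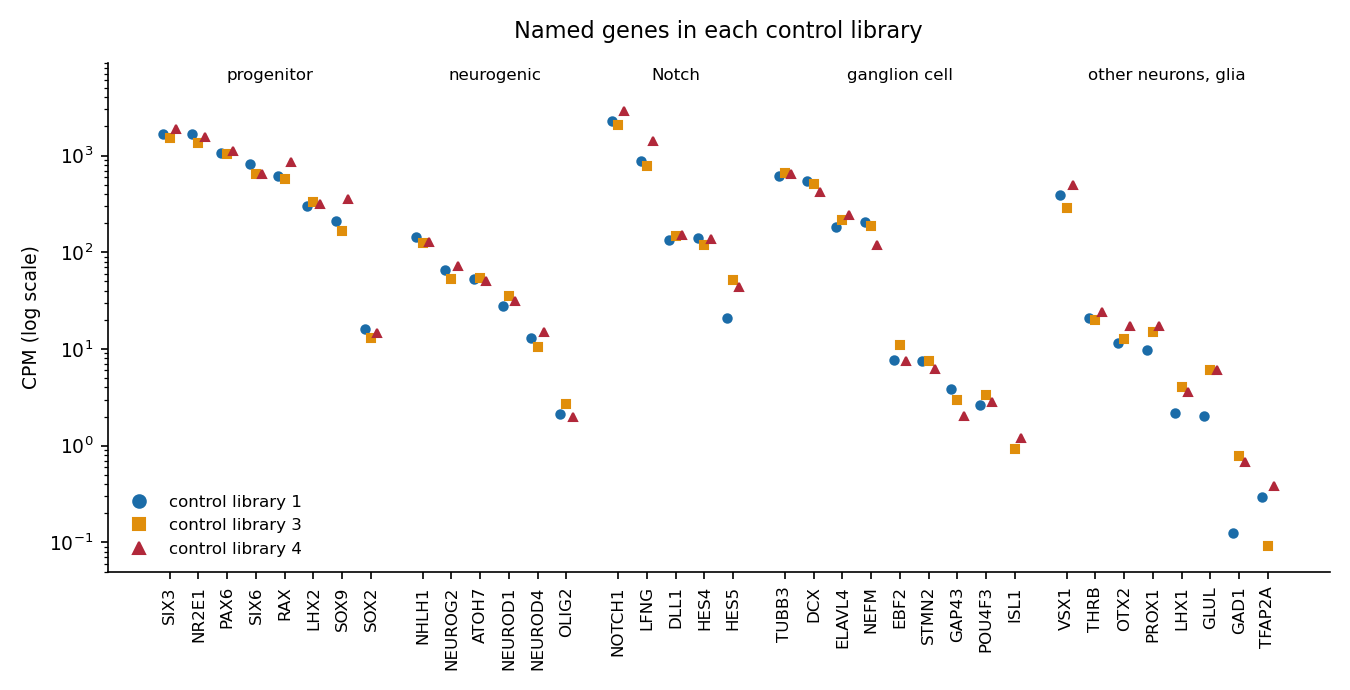
CPM of selected progenitor, neurogenic, Notch, ganglion cell and other genes in control libraries 1, 3 and 4 (log axis, libraries without a count not drawn). The progenitor genes shown other than SOX2 lie above 100 CPM in each library, the ganglion cell factors POU4F3 and ISL1 lie under 10 CPM, and HES5, LFNG and SOX9 separate the libraries.

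Genes of ganglion cells and neurites lay at widely different levels. Of 36 in the table, 10 had at least 100 CPM, 17 lay from 1 to under 10 CPM and 5 were under 1 CPM. Over all genes the shares of these classes were 35.1%, 10.6% and 30.4%. Some neuronal and neurite genes were well covered, while others, such as GAP43 and STMN2 below, were low. TUBB3, neuronal tubulin, was at 608, 661 and 640 CPM, and DCX, a microtubule protein of migrating neurons, at 544, 509 and 418 CPM. ELAVL4, a neuronal RNA-binding protein, was at 183, 217 and 245 CPM. The neurofilament gene NEFM was at 207, 185 and 119 CPM, lowest in library 4. NCAM1 and STMN1, which dividing neural cells also use, were at 3671 ± 422 and 2995 ± 102 CPM.

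Of the 55 genes listed for ganglion cells and neurites, 36 were in the table, and the ganglion cell factors named here were low. ISL1, a LIM homeobox factor of differentiating ganglion cells, had 0 counts in library 1, 20 in library 3 and 32 in library 4. POU4F3, of the Brn3 family, was at 2.65, 3.32 and 2.8 CPM. EBF1 was at 7.55 ± 2.13 CPM, EBF2 at 8.71 ± 2.07 CPM and KLF7, which promotes axon growth, at 9.79 ± 3.17 CPM. Several other genes of ganglion cells and neurites were low too. GAP43, an axon growth protein, was at 2.94 ± 0.91 CPM, SNCG at 1.24 ± 0.344 CPM and THY1 at 1.23 ± 0.455 CPM. The nicotinic receptor subunit CHRNB3, a ganglion cell gene in chick, was at 3.8 ± 1.63 CPM. STMN2 was at 7.13 ± 0.791 CPM and RBPMS2 at 9.03 ± 0.755 CPM. L1CAM, IRX1 and IRX2 were listed at 0 in all 3 libraries.

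The lists of other retinal cell types differed in level. Of 21 photoreceptor genes in the table, 14 were under 1 CPM, against 30.4% of all genes. The 6 without a count included RCVRN, a calcium sensor of photoreceptors. THRB, the thyroid hormone receptor used by cone precursors, was at 21.1, 20.2 and 24.1 CPM and OTX2, which commits cells to the photoreceptor fate, at 13.9 ± 3.15 CPM. The cone opsin gene OPN1SW was at 5.37 ± 1.36 CPM and RXRG, a cone receptor, at 5.07 ± 2.43 CPM. Of 15 amacrine, horizontal and bipolar genes in the table, 4 had at least 100 CPM, against 35.1% of all genes. From 1 to under 10 CPM lay 5 of them, against 10.6%, and under 1 CPM lay 5, against 30.4%. In this list, VSX1 was at 392 ± 105 CPM, LHX9 at 273 ± 55.3 CPM and SLC6A9, a glycine transporter, at 123 ± 16.1 CPM. PROX1, a horizontal cell factor, was at 14 ± 3.88 CPM and LHX1, another, at 3.28 ± 0.974 CPM. TFAP2A and TFAP2B, amacrine factors, had 7, 2 and 10 counts and 0, 0 and 2 counts. GAD1, which makes the transmitter GABA, had 3, 17 and 18 counts. Of 7 Muller glia genes in the table, 2 had at least 100 CPM, 3 lay from 1 to under 10 CPM and 2 were under 1 CPM. Over all genes the shares of these classes were 35.1%, 10.6% and 30.4%. DKK3 had the most reads of the 7, at 280 CPM, while GLUL, glutamine synthetase, was at 2.02, 6.03 and 6.1 CPM.

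Markers of cells outside the neural retina were low with few exceptions. Of 10 pigment epithelium genes in the table, 6 were under 1 CPM, against 30.4% of all genes. Only MITF, a pigment cell factor, was above 10 CPM, at 41.4 ± 2.56 CPM. TYR, TYRP1, PMEL, DCT and RPE65 were each under 2 CPM. The summed level of the list was between 44.5 and 53.8 CPM in a library. Among 17 lens genes, CRYAB was at 30 ± 5.38 CPM and ASL1, the delta crystallin gene of birds, at 16.4 ± 5.49 CPM, while CRYAA was at 1.51 CPM. The lens list summed to between 59 and 68.9 CPM.

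Among mesenchyme genes, COL1A2 was at 7.62 ± 2.22 CPM and COL3A1 at 12.3 ± 2.13 CPM, TWIST1 was at 0.0714 CPM, and DCN was listed at 0. COL5A1, at 281 ± 61.5 CPM, and THBS2, at 43.7 CPM, were the members of that list above 20 CPM. The globin genes HBAA, HBG1 and HBG2 were each under 0.1 CPM, and HBE, HBE1, HBM, HBZ and GATA1 were listed at 0. CA2, which is also on the blood list because red cells carry it, was the only blood gene above 10 CPM. KDR, a VEGF receptor known from endothelium and from retinal progenitors, was at 117 ± 21.1 CPM, whereas the endothelial gene CDH5 had 0, 19 and 3 counts. The leukocyte gene PTPRC was at 3.77 ± 1.52 CPM and CSF1R, of microglia, at 0.443 CPM, while IRF8 was at 79.5 ± 25.1 CPM.

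Genes of dividing cells were widely present. Of 43 S phase genes listed, 26 were in the table, all with at least 10 CPM and 17 with at least 100. Of 44 G2 and M phase genes listed, 28 were in the table, 26 with at least 10 CPM and 15 with at least 100. CCND1, the G1 cyclin of retinal progenitors, was at 1408, 1405 and 1450 CPM, a CV of 1.79%. CDKN1B, an inhibitor linked to cell cycle exit, was at 264, 261 and 275 CPM, a CV of 2.81%. These G1 regulators were among the steadier genes of the lists. CDK6 was at 397 ± 29.7 CPM and CCND2 at 159 ± 15.1 CPM. CDKN1A was at 14.6 ± 1.53 CPM and CDKN2A had 5, 3 and 6 counts.

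Transcript levels of the cell cycle phase lists differed between the libraries, and the share of cells in each phase was not measured. The summed G2 and M phase level was 3227 CPM in library 1, 4955 in library 3 and 4728 in library 4. Library 1 was the lowest for 25 of the 26 genes of this list with at least 10 CPM, while over all 4005 genes at that level library 1 was lowest for 36.2%, library 3 for 28.0% and library 4 for 35.8%. TOP2A, a topoisomerase that untangles chromosomes, was at 504, 851 and 983 CPM. KIF4A, a mitotic kinesin, was at 72.8, 182 and 173 CPM and SMC2, a condensin subunit, at 121, 322 and 237 CPM. Library 1 also stood lowest for BUB1, at 44.9, 82.2 and 99.1 CPM, and for PLK1, at 34.4, 60.6 and 70.6 CPM, both mitotic kinases.

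The S phase list had another pattern. It summed to 6772 CPM in library 1, 6149 in library 3 and 5080 in library 4. Library 4 was lowest for 22 of 26 genes and library 1 highest for 19 of 26, where over all 4005 genes library 1 was highest for 39.7%, library 3 for 27.1% and library 4 for 33.3%. MCM2, a subunit of the replicative helicase, was at 1185, 1039 and 796 CPM, and MCM5 at 598, 466 and 348 CPM. PCNA, the polymerase clamp, was at 564, 573 and 453 CPM. Library 1 came from 57000 sorted cells and the others from 192000 and 200000, and the part of cell number in these differences was not tested.

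Glycolytic enzymes were among the genes with the most reads. Of 15 in the table, 12 had at least 100 CPM and 7 at least 1000. GAPDH, the dehydrogenase in the middle of the pathway, was at 10068, 10830 and 13033 CPM. LDHA, which turns pyruvate into lactate, was at 3405, 3609 and 7645 CPM, and LDHB, its partner subunit, at 999, 1029 and 881 CPM. PGK1 was at 1672, 1992 and 2839 CPM, ENO1 at 1892, 2171 and 2909 CPM, and PKM at 3331, 3571 and 4359 CPM. TPI1, at 1876 ± 58.8 CPM, was steadier. The muscle isoform PFKM was listed at 0.

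Library 4 was highest for 11 of the 13 glycolytic genes with at least 10 CPM, against 33.3% of all 4005 genes. The summed level of the list was 26983 CPM in library 1, 29296 in library 3 and 39043 in library 4, and the value in library 4 was 1.39 times the mean of the other libraries. Without GAPDH, the member with the most reads, it was 1.47 times that mean. The glucose transporter SLC2A1 was at 4424, 4630 and 9310 CPM. It carried most of the difference in the glucose uptake list, whose sum in library 4 was 1.72 times the mean of the others with SLC2A1 and 1.19 times without it, and library 4 was lowest for 3 of its 12 genes with at least 10 CPM. SLC2A3, another transporter, was at 115, 112 and 178 CPM, and hexokinase HK1 at 213, 208 and 330 CPM. Genes that answer to low oxygen were also highest in library 4: P4HA1, a collagen hydroxylase, was at 308, 417 and 673 CPM, and KDM3A, a histone demethylase, at 125, 145 and 246 CPM. Of the 11 hypoxia genes with at least 10 CPM, library 4 was highest for 9, and the sum of that list was 1.33 times the mean of the others. HIF1A, the oxygen-regulated factor, which is controlled mainly at the protein level, was at 485, 524 and 487 CPM, and PDK1 at 227, 237 and 227 CPM.

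Mitochondrial genes varied less than glycolytic genes. Of 86 nuclear respiratory chain genes listed, 39 were in the table, all with at least 10 CPM and 37 with at least 100. Their median CV was 8.93%, against 22.6% for the glycolytic genes with at least 10 CPM. It was thus near that of all genes of such levels. The median CV was 9.81% over all 4005 genes and 8.37% over those from 100 to under 1000 CPM. ATP5B, the catalytic subunit of ATP synthase, was at 3165, 3059 and 3182 CPM, and COX4I1, of complex IV, at 800, 706 and 677 CPM. The list summed to 19766, 18246 and 17352 CPM. Library 1 was highest for 34 of the 39 genes and library 4 lowest for 29, against 39.7% and 35.8% of all 4005 genes. Of 25 genes of the tricarboxylic acid cycle, 20 had at least 100 CPM, among them MDH1 at 1142 ± 50.8 CPM and SDHA at 403 CPM. IDH3B, PC, PCK1 and PCK2 were listed at 0.

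Regulators of mitochondria ranged widely. TFAM, which packages and transcribes the mitochondrial genome, was at 186, 173 and 166 CPM, and NRF1, a factor that drives respiratory genes, at 71.5 ± 6.72 CPM. PPARGC1A, the coactivator of mitochondrial biogenesis, was at 3.45, 6.68 and 6.86 CPM. The fission gene DNM1L was at 522 ± 79.6 CPM and the fusion gene MFN1 at 515 ± 52.7 CPM. UCP3, an uncoupling protein of muscle, had 9, 0 and 5 counts. Protein synthesis genes were high. Of 83 ribosomal protein genes listed, 54 were in the table, all with at least 10 CPM and 52 with at least 100. Their sum was 49439, 47853 and 45407 CPM, with library 1 highest for 40 of 54 genes and library 4 lowest for 44, against the same 39.7% and 35.8% of all genes.

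Sterol and fatty acid genes were lowest in library 1. The summed level was 2615 CPM in library 1, 3749 in library 3 and 3672 in library 4. Of 19 genes with at least 10 CPM, library 1 was lowest for 16, against 36.2% of all 4005 genes. CYP51A1, a demethylase of cholesterol synthesis, was at 216, 381 and 331 CPM. MSMO1 was at 64.7, 115 and 152 CPM and INSIG1, a sterol sensor partner, at 35.3, 65.7 and 74.8 CPM.

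Other lists also set library 4 apart. Its sum, relative to the mean of the other libraries, was 1.28 for the Notch pathway, 1.33 for amacrine, horizontal and bipolar genes, 1.31 for mesenchyme, 1.30 for endothelial and 0.675 for immune markers. Single genes carried the last 3 of these values. Without COL5A1 the mesenchyme ratio was 0.976, without KDR the endothelial ratio was 0.662, and without IRF8 the immune ratio was 1.45. The endothelial list without KDR summed to only 1.09, 5.2 and 2.08 CPM in libraries 1, 3 and 4. The immune list without IRF8 summed to 6.43, 10 and 11.9 CPM, so both ratios rest on low sums. Without NOTCH1 and VSX1 the Notch and amacrine, horizontal and bipolar ratios were 1.24 and 1.23. The part of these cell types in the glycolytic and hypoxia levels of library 4 was not tested.

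**Figure D4:**
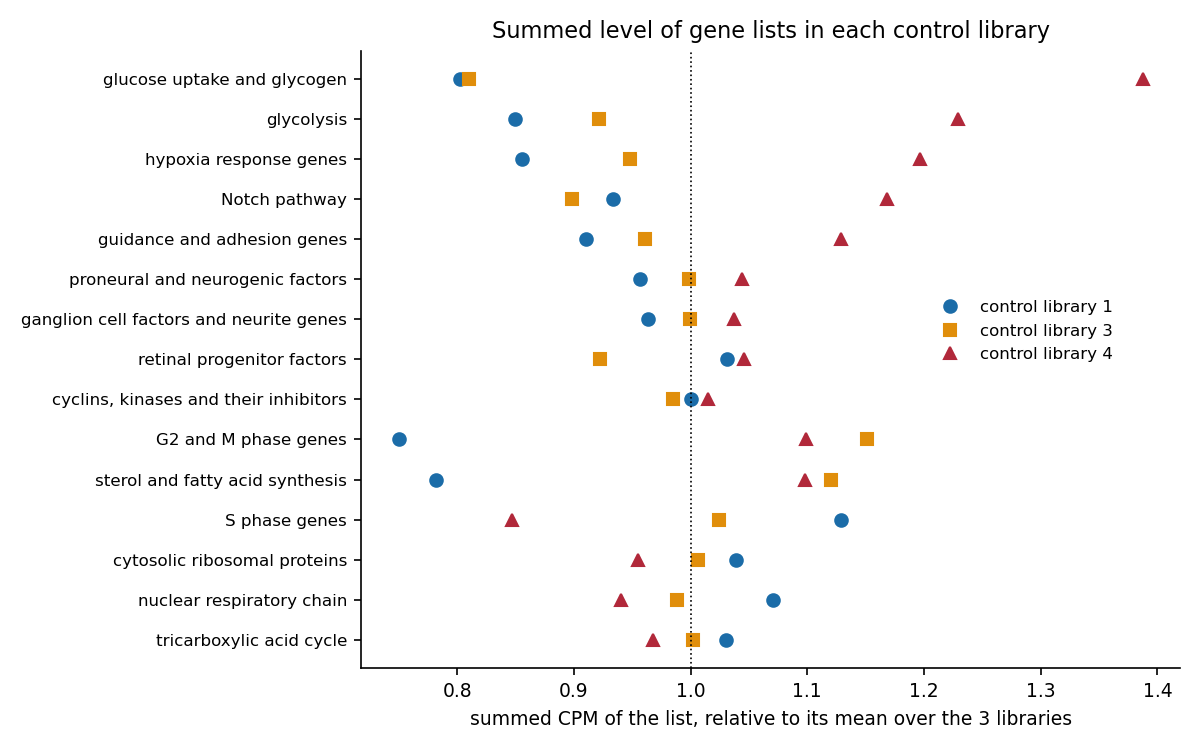
Summed CPM of selected gene lists in control libraries 1, 3 and 4, divided by each list's mean over the 3 libraries. Library 4 lies to the right for glycolysis and hypoxia genes, and for glucose uptake mainly through SLC2A1, and library 1 to the left for G2 and M phase and sterol genes, while the cyclin and kinase list lies near 1 in each library.

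Signalling genes were read by role, from ligands to receptors and targets. In the RA pathway, the synthesising enzyme ALDH1A1, known from dorsal retina, was at 788, 1132 and 1139 CPM, and ALDH1A3, known from ventral retina, at 76.8, 74.3 and 63 CPM. ALDH1A2 was at 4.08 ± 0.614 CPM. The degrading enzyme CYP26A1 was at 81, 73.6 and 86.2 CPM without added RA, and the receptor RARB at 75 ± 11.5 CPM. RARA was at 3.25 ± 1.17 CPM, DHRS3, a retinal reductase, at 33.5 ± 7.17 CPM, and STRA6, a retinol carrier receptor, at 36.9 ± 8.1 CPM. The components for making, sensing and clearing RA were therefore detected in all 3 libraries.

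Among FGF genes, 15 of 24 had at least 10 CPM, near the 59.0% of all genes. The ligands FGF8 and FGF19, made in the central retina of the chick, were at 66, 40.5 and 24 CPM and at 207, 147 and 103 CPM. Both were highest in library 1 and lowest in library 4. FGF2 was at 16.5 ± 0.733 CPM. The receptor FGFR1 was at 307, 266 and 314 CPM, whereas FGFR2 was at 8.62, 16 and 24 CPM and FGFR3 at 3.07, 9.07 and 26.1 CPM. FGFR3 and FGFR2 were thus lowest in library 1 and highest in library 4, opposite to the ligands. The feedback genes SPRY2, SPRY1 and DUSP6 were at 103 ± 9.64, 101 ± 18.9 and 43.6 ± 3.69 CPM.

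Wnt ligands were low and receptors higher. Of the ligands in the table, WNT5B was at 7.11 ± 1.66 CPM, WNT5A at 5.57 ± 1.42 CPM and WNT4 at 3.67 CPM. WNT11, WNT2B, WNT7B and WNT3 were under 1 CPM, and WNT3A, WNT6 and WNT7A were listed at 0. The receptors FZD7 and FZD3 were at 254 ± 15.6 and 243 CPM, and CTNNB1, the transducer beta-catenin, was at 1025 ± 49.8 CPM. AXIN2, a general target of the canonical pathway, was at 12.5 ± 1.54 CPM.

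Of the hedgehog genes, the ligand SHH, which newborn ganglion cells release, had 14, 21 and 13 counts, and the receptor and target PTCH1 was at 17.2 ± 2.61 CPM. The factors GLI3 and GLI2 were at 137 ± 5.99 and 106 ± 10.8 CPM, and GLI1 was listed at 0. Among BMP and TGF-beta genes, BMP4, a dorsal signal of the retina, was at 17.2, 20.7 and 10.4 CPM, the receptor BMPR1A at 124 ± 1.89 CPM and BAMBI, a decoy receptor, at 464 ± 44 CPM. TGFB3 was at 233 ± 29.3 CPM. CFC1, a Nodal coreceptor, was at 77.2, 28.4 and 35.6 CPM, high in library 1 alone.

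Of 29 growth factor and receptor genes, 12 had at least 10 CPM and 11 were under 1 CPM, against 59.0% and 30.4% of all genes. IGF1R was at 789 ± 155 CPM, while its ligands IGF1 and IGF2 were under 1 CPM. MDK, the heparin-binding factor midkine, was at 252, 345 and 361 CPM and its relative PTN at 25.7, 22.1 and 42.4 CPM, and PTPRZ1, a receptor for both, was at 96.9 ± 18.1 CPM. VEGFA was at 126 ± 19.4 CPM and its receptor NRP1 at 116 ± 20.4 CPM. NTRK2, NTRK3 and NTF3, of the neurotrophin system, were each under 1 CPM, and the shared receptor NGFR was at 38.6 CPM.

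Of 20 ephrin and Eph genes listed, 10 were in the table, all above 1 CPM. EFNB1, a dorsal ligand in the chick retina, was at 698, 766 and 1009 CPM and EFNB2 at 77.5, 131 and 120 CPM. The receptors EPHA4, EPHA3 and EPHB2 were at 620 ± 91.8, 314 ± 68.9 and 51.8 ± 10.5 CPM, and EPHA5 at 17, 36.7 and 40 CPM. In the guidance list, CDH2, the cadherin of neuroepithelium, was at 1447 ± 138 CPM, the repellent SLIT2 at 249, 382 and 400 CPM, and the chemokine receptor CXCR4 at 326, 319 and 487 CPM. The attractant NTN1 had 2, 0 and 0 counts and SLIT1 was at 5.18 ± 0.266 CPM. Of the orphan receptors, RORB was at 124, 155 and 202 CPM and NR2F2 at 87.9 ± 7.26 CPM.

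Stress genes were measured because retinas were cultured and dissociated before sorting. CHAC1, a glutathione-degrading enzyme induced by the factor ATF4, was at 2509, 2823 and 2849 CPM. ASNS, asparagine synthetase, was at 2407, 2348 and 2189 CPM and ATF4 itself at 1132, 1166 and 1025 CPM. All 3 were above 1000 CPM with a CV under 7% in each case. Immediate early genes were present: EGR1 was at 718, 735 and 1328 CPM, FOS at 349, 341 and 482 CPM and JUN at 420, 415 and 429 CPM. EGR1 and FOS were highest in library 4 while JUN was level. Among apoptosis genes, BCL2 was at 145, 160 and 219 CPM and the death ligand TNFSF10 at 44.6 ± 2.2 CPM.

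The replicates were alike over most genes. Pearson's r of log2(CPM + 1) across the 4726 genes at 1 CPM or more was 0.989 between libraries 1 and 3, 0.986 between 1 and 4 and 0.991 between 3 and 4. This is a correlation across genes, which are not independent, in libraries that share their annotation. Over the 4005 genes at 10 CPM or more, the median CV was 9.81%, against a median of 1.8% from counting error alone. By level it was 30.6% for genes from 1 to under 10 CPM, 12.7% from 10 to under 100, 8.37% from 100 to under 1000 and 6.97% at 1000 or more. Counting error accounted for a median of 11.4% in the first of these classes and 0.522% in the last. The median spread was thus above the median counting error in each class.

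Of the 4005 genes, 80 (2%) differed by at least 2-fold between the highest and the lowest library, and 455 (11.4%) by at least 1.5-fold. Among the 80, library 1 was lowest for 46 and library 4 highest for 42, against 36.2% and 33.3% of all 4005 genes. Without library 1, 30 genes reached 2-fold, without library 3 51 did, and without library 4 27 did. Among genes of at least 50 CPM, the 10 with the largest ratio were COQ8A, MIR6787, SMC2, GMPR, CDH20, KIF4A, NPY, ADCYAP1R1, HNRPK and MSMO1. COQ8A, a mitochondrial protein needed for coenzyme Q synthesis, was at 210, 260 and 581 CPM. MIR6787 was at 320, 342 and 856 CPM. The symbol is that of a microRNA, and which transcript these reads come from was not established. NPY, a neuropeptide, was at 252, 209 and 101 CPM. COQ8A and MIR6787 were high in library 4 alone, as were SLC2A1 and LDHA.

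The 10 with the smallest ratio were TBPL1, RFNG, CETN1, NSG1, EIF5A2, RUVBL1, C12ORF57, XRN2, LAMP1 and CDV3. TBPL1, a TBP-like transcription factor, was at 105, 106 and 106 CPM. The CV of each of these 10 genes was under 1%, which is less than its own counting error, so their order carries no information. YBX1, an RNA-binding protein with more reads, was at 3911, 4020 and 3962 CPM, with a CV of 1.37%.

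**Figure D5:**
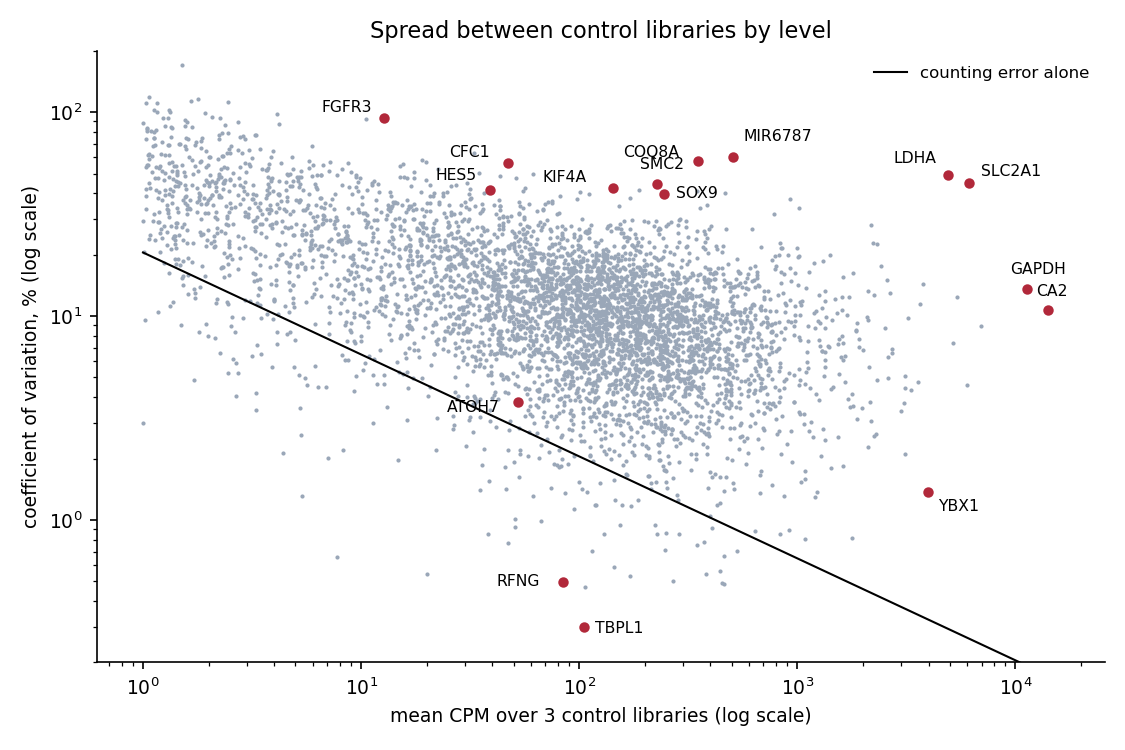
CV over the 3 control libraries against mean CPM for the 4726 genes at 1 CPM or more (log axes), with the CV that counting error alone gives at the mean depth (line). The spread shrinks with level but stays above the line for most genes, and LDHA, SLC2A1, MIR6787 and COQ8A lie far above genes of like level.

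Absence could be read only within limits. Over the 3 libraries together, 3 counts correspond to 0.0417 CPM, so the 828 genes without a count lie under that level by counting error alone, if their reads could be counted. That condition was not met for every gene. IDH3B, TUBB, DNMT1, CDC37 and DCTN1, which code for proteins used by most dividing cells, were each listed at 0 in all 3 libraries (DNMT1, CDC37 and DCTN1 were chosen after their values were seen). A value of 0 in this table is therefore given as a listed value and not as evidence that a gene was silent. Whether reads of genes with low values were missed in the same way was not tested.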

How the data were processed

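The 3 control libraries were sequenced as single reads of 100 bases from amplified cDNA (1 ng of RNA, 200 pg of cDNA for library preparation), per the labels' protocols. Per the submitters' processing notes, the build was galGal5, and STAR 2.5.3a, HTSeq 0.6p1 and edgeR 3.18.1 were named, with no settings. The authors deposited whole-number counts per gene symbol, not normalized. The deposited CPM table lists 4752 genes, and each of its control values is the count multiplied by 1 factor per library. The same factor was applied to the genes of the count table outside it, since its filter on low values also reads the RA libraries. The deposited factors lie between 0.992 and 1.01 times plain library-size scaling.

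Means, SDs, CVs and ratios were computed with pandas 2.3.3 and numpy 2.4.6, and the spread and scaling code was tested on simulated data. Counting error is 1 over the square root of the mean count. No group was contrasted, so no test of expression was made. PCR reads carried no molecular identifiers, so counting CVs and floors cover the counting of reads only and leave out noise from amplification. In a spread above counting error, amplification noise and differences between the cells of the libraries cannot be told apart. Labels do not say that the libraries are independent cultures beyond their different embryos. No library was another one deposited again, as each pair differed by more than sampling noise (chi-square per degree of freedom of at least 48.5), which says nothing else of the libraries. The members and lists were chosen with earlier results of these data known. The genes named are list members, the 20 with the highest mean CPM, and the 10 with the largest and the 10 with the smallest ratio among genes of at least 50 CPM. Of 1142 listed symbols, 723 were in the table. RefSeq gene names (GRCg7b) held 6377 of the 6789 symbols, and a further 242 were among its synonyms. Levels per kilobase had been planned and were not computed, because the only lengths at hand were gene spans with introns in another build. Alternatives covered scaling, the gene set, each library left out, thinned counts and thresholds. Some list members are not reported here.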

Additional observations from a re-analysis of the deposited data

How the results depend on the processing

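Library-size scaling, median-of-ratios scaling, thinned counts and the lowest library in place of the mean left each level class, list median and stability value they were run on within 1.5 times, or within 1 SD, of the value reported. With only genes of the deposited CPM table, 49 genes were under 1 CPM and 0 had no count. List medians in CPM then became 98.8 for progenitor, 74.5 for proneural, 8.87 for ganglion cell, 5.37 for photoreceptor and 6.74 for amacrine, horizontal and bipolar genes. They became 144 for cyclins, 1876 for glycolysis, 160 for glucose uptake, 254 for the tricarboxylic acid cycle, 766 for translation, 48.6 for retinoic acid, 43.6 for FGF, 73.8 for Wnt, 81.1 for hedgehog and 64.6 for BMP and TGF-beta. They were 18.8 for growth factors, 41.1 for nuclear receptors, 368 for stress, 39.5 for guidance, 2.12 for pigment, 5.55 for lens, 10.5 for mesenchyme, 7096 for blood (CA2 and 1 other gene), 59.7 for endothelial and 3.77 for immune genes. That setting drops low genes by construction, and 2385 of its 4752 genes had at least 100 CPM. These list medians are therefore not to be set against the 35.9 CPM of all 6789 genes. At 100 CPM or more, 13 genes differed by 2-fold, and 455 of all 4005 differed by 1.5-fold. Leaving out 1 library gave a median CV of 6.63% (without library 1) to 9.7% (without library 3), between 27 (without library 4) and 51 (without library 3) genes past 2-fold, and medians of 61.7 to 86.2 CPM for progenitor, 329 to 353 for stress, 0.564 to 1.02 for immune, 940 to 1014 for glycolysis, 20.1 to 22.2 for nuclear receptors, 44 to 47.2 for apoptosis, 0.214 to 0.539 for lens, 1.53 (without library 4) to 2.89 for growth factor and 0.00947 (without library 1) to 0.0295 for blood genes. Sums of lists without their member with the most reads were added after seeing the data. No paired analysis was possible because the control libraries alone are described and no test was made. Levels per length were not run. From 1 to under 10 CPM, the median counting CV of 11.4% was part of a median CV of 30.6%.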

Other observations

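The groups in this paragraph were chosen after their values were seen and carry no test. Genes that load amino acids onto transfer RNA in the cytosol had many reads: of 15 aminoacyl-tRNA synthetases in the table, 13 had at least 100 CPM and 4 at least 1000, with a median of 627 CPM. Of 9 amino acid supply and stress genes linked to ATF4, 7 had at least 1000 CPM, with a median of 1338 CPM. All 7 subunits of the chaperonin CCT in the table, and all 6 of the 14-3-3 genes in it, which code for phosphoprotein adaptors, had at least 100 CPM. Of 22 HOX cluster genes, which pattern the trunk and hindbrain, 21 were listed at 0. The exception was HOXA3, at 22.9, 19.3 and 22.1 CPM in libraries 1, 3 and 4. SPIN1W was at 49.1, 15.4 and 40 CPM and UBAP2 at 51.7, 10.5 and 36.5 CPM, both lowest in library 3.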
